A study of Mus musculus with 9 samples.

Results

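Atrial chamber genes are transcribed mainly in the atria of the adult mouse heart or mark atrial identity. A set of 7 such genes, Myl7, Myl4, Sln, Bmp10, Dkk3, Nr2f1 and Nr2f2, was followed through the infarct border zone of sham-operated, ligated and ligated, cell-implanted hearts. The rule took the rows whose mouse Ensembl ID carries one of these symbols. All 7 were found among 53465 gene IDs, and all 7 passed the filter on low counts, which kept 13825 genes. The genes were chosen by their measured CPM in the 3 groups and by how that level varied within a group, with earlier results of these data known. Their group differences and correlations are therefore given as descriptions, with standard errors and no p-values.

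RNA was taken from NOD-SCID mouse hearts. The strain is immunodeficient and lacks mature T and B cells, so none of the groups had an intact adaptive immune response. The sham group had surgery without ligation, the ligation group had a coronary artery tied off, and the cell group had the same ligation and then received FOXO3-GE-MPCs. Each group had 3 libraries. For cell replicates 2 and 3 a further label gives a FOXO gene other than FOXO3. Their titles and treatment labels give FOXO3 and were followed. The species and type of the implanted cells, the age of the mice and the time of sampling are not given in the sources used here. Among the samples used here no group received ligation with control cells or vehicle. A mouse gene count cannot be divided between the host heart and implanted cells. The labels do not say that libraries came from separate animals, so p-values measure only the spread between these samples. In bulk tissue, a difference in the number of cells of a type and a difference in RNA per cell cannot be told apart.

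The atrial and ventricular muscle of the heart build their contractile machinery from partly different genes. Atrial myocytes use the regulatory myosin light chain encoded by Myl7 and the essential light chain encoded by Myl4, where ventricular myocytes use Myl2 and Myl3. Sarcolipin, encoded by Sln, restrains the calcium pump SERCA in atrial muscle, the role that phospholamban (Pln) has in the ventricle. Bmp10 encodes a secreted BMP ligand made by atrial myocytes, Dkk3 a secreted glycoprotein of the Dickkopf family, and Nr2f1 and Nr2f2 the COUP-TF nuclear receptors, of which Nr2f2 is required for atrial identity in mouse heart development.

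The start-site regions of Myl7 and Bmp10 are shown because these genes moved in opposite directions when cells were implanted. Of the 7 genes, 5 matched an entry in the RefSeq promoter table (GRCm38.p6). The windows of these 2 genes, 250 bases directly before the start site, overlap no annotated exon. They are printed 5′ to 3′ on the gene's strand, with motif matches in capitals, for Myl7 at chr11:5898783-5899032 (minus strand) and for Bmp10 at chr6:87428744-87428993 (plus strand).
Myl7: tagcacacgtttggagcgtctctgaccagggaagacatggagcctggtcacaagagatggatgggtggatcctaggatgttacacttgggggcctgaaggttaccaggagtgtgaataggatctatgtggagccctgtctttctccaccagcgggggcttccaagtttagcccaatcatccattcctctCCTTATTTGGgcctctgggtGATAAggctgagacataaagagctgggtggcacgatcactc
Bmp10: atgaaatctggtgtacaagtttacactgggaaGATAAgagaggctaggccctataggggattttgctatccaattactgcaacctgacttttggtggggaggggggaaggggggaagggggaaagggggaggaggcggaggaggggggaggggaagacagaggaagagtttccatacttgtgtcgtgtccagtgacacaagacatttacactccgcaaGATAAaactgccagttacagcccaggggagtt
The Myl7 window holds 1 CArG box, the element bound by serum response factor, which ends 51 bases before the start site. It also holds 1 GATAA, the core read by GATA factors, ending 36 bases before the start. The Bmp10 window holds 2 GATAA matches, ending 213 and 27 bases before the start, and no CArG box. On both strands, 22.6% of 32841 windows of this length hold GATAA and 1.47% hold a CArG box. A MEF2 site (in 2.92% of windows), AGGTGT (11.8%), TNAAGTG (10.1%) and a direct repeat of AGGTCA with 1 base between (0.0335%) were also searched in the windows of the 5 matched genes, and no match to these 4 was found. The matches describe letters only.

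Gene counts per library ranged from 4549268 to 7515052, and 3 counts, taken as the smallest detectable level, equalled 0.375 to 0.639 CPM (counts relative to library size, with TMM factors). The mitochondrial share of these counts averaged 19.6% ± 0.417 (SD, n = 3) in sham hearts, 13.2% ± 0.695 after ligation and 14.3% ± 0.0366 when cells were given. The summed level of 10 pan-cardiomyocyte genes was 52358 to 53963 CPM in sham, 44068 to 45212 in ligation and 43486 to 44276 with cells, and none was at 0 in every library. Heart muscle transcripts were thus present in all groups. These genes cannot tell the border zone from other parts of the heart, or ventricle from atrium. No pair of replicates agreed within sampling noise. The files of sham 1 and 2, and of ligation 2 and 3, carry the same name stem in their headers, whose meaning is not given.

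The contractile atrial genes Myl7, Myl4 and Sln were somewhat lower after ligation than in sham and then 3.04-, 3.47- and 3.48-fold higher with cells than after ligation alone, which put them above sham. Dkk3 was higher after ligation and higher again with cells. Bmp10, barely detected in sham, was highest after ligation and 5.41-fold lower with cells. The ranges of Nr2f2 overlapped in every comparison, and those of Nr2f1 in all but cells against sham, where the cell libraries were lower. After ligation, 5 of the 7 genes passed an adjusted p of 0.05 in edgeR's quasi-likelihood test, 2 higher and 3 lower, where 38.2% of all tested genes passed (20.1% higher, 18% lower). With cells against ligation 5 of 7 passed, 4 higher and 1 lower, where 9.87% of all genes passed (4.19% higher, 5.69% lower). With cells against sham 5 of 7 passed, all higher, where 40.9% of all genes passed. Among these, Bmp10 passed the filter on low counts only through the ligation libraries. CPM ranges did not overlap for 5, 5 and 6 of the 7 genes, against 47.6%, 27.2% and 49.8% of all genes. Because these contrasts chose the genes, nothing is read from these counts. The median log2 fold change of the 7 genes was 0.02, 0.62 and 1.33 in the 3 comparisons, and that of all tested genes 0.0080, 0.0020 and -0.0073. The ligation libraries enter the first and second comparison with opposite signs, and the comparisons are given side by side for that reason.

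**Figure D1:**
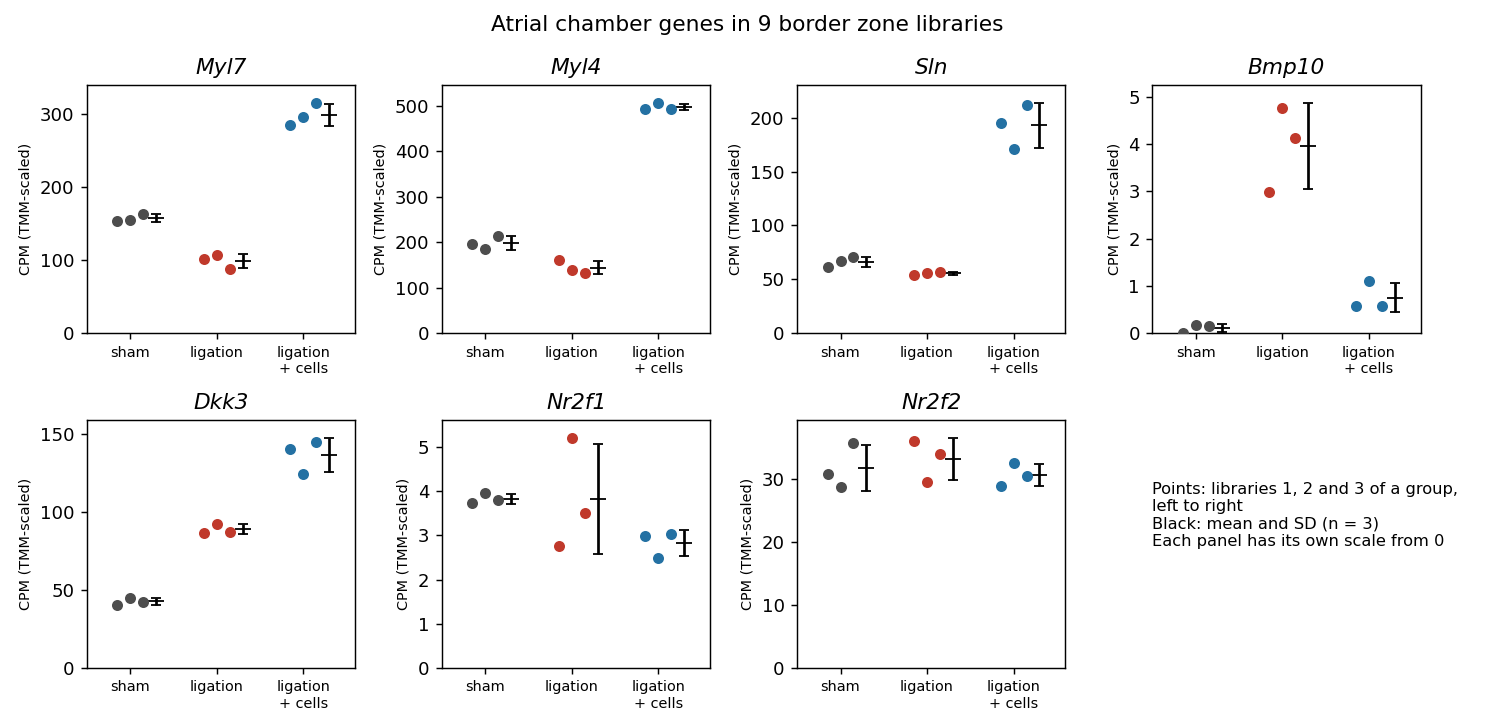
Level of each of the 7 atrial chamber genes in every library (vertical axis, CPM after TMM scaling, from 0, a separate scale for each gene; horizontal axis, group). Points are libraries and black bars the mean and SD of 3; Myl7, Myl4, Sln and Dkk3 were highest in all 3 cell libraries, Bmp10 in all 3 ligation libraries, and Nr2f2 overlapped in all groups.

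Myl7 (ENSMUSG00000020469, chr11:5896637-5898782 on the minus strand of GRCm38) stood at 154, 155 and 164 CPM in the sham libraries. It stood at 102, 106 and 87.9 CPM after ligation and at 286, 297 and 315 CPM with cells. All ligation libraries were below all sham libraries, and all cell libraries were above both. The log2 fold change was -0.68 (SE 0.0677) after ligation, 1.60 (SE 0.0665) with cells against ligation and 0.93 (SE 0.0644), or 1.90-fold, with cells against sham.

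Myl4 (ENSMUSG00000061086, chr11:104550663-104595753, plus strand), the partner light chain, was measured at 195, 184 and 214 CPM in sham. The ligation libraries gave 160, 140 and 133 CPM and the cell libraries 494, 506 and 494 CPM. The order of the groups was that of Myl7, again without overlap, and the SD over the 3 cell libraries was 7.0 CPM. Its log2 fold changes were -0.46 (SE 0.0657), 1.79 (SE 0.0651) and 1.33 (SE 0.0637), the last being 2.51-fold. Both light chain genes lie on chromosome 11, far apart from each other.

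Sln (ENSMUSG00000042045, chr9:53850164-53854560, plus strand) read 61.2, 66.6 and 70.6 CPM in sham, 54.1, 55.7 and 56.4 CPM after ligation, and 195, 171 and 212 CPM with cells. The groups did not overlap, but sham and ligation lay close together. The log2 fold change was -0.25 (SE 0.0824) after ligation, 1.80 (SE 0.0772) with cells against ligation and 1.54 (SE 0.0761) with cells against sham. The lower level after ligation was no longer past the threshold with library totals alone (-0.07) or without sham replicate 3 (-0.20). Among the 13825 tested genes ordered by log2 fold change with cells against ligation, Sln stood 18th from the highest, Myl4 20th and Myl7 29th.

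Sln is also transcribed in skeletal muscle. Of 11 fast skeletal muscle markers, 5 passed the filter on low counts. Their summed level was 21.002 to 27.5 CPM in sham, 37.0 to 42.8 CPM after ligation and 38.0 to 41.3 CPM with cells. Mybpc2, a myosin-binding protein, made up most of that sum. After ligation Pvalb, Tnnt3 and Mybpc2 rose, by 2.34, 1.80 and 0.48, where 20.1% of all tested genes rose. With cells against ligation Mybpc2 rose and Pvalb, Tnni2 and Tnnt3 fell, where 4.19% of all genes rose and 5.69% fell. With cells against sham Mybpc2 rose and Pvalb and Tnni2 fell, where 21% rose and 20% fell. The troponin gene Tnnc2 had 0 counts in all 9 libraries, but a gene on the other strand covers 74.0% of its exon bases, so this 0 is uncertain. Their part in the level of Sln was not tested.

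The ventricular counterparts fell after ligation and had log2 fold changes of at most 0.19 in size with cells against ligation. Per kilobase of the longest principal transcript, Myl2 was at 9791 ± 210 CPM (SD, n = 3) in sham, 5115 ± 454 after ligation and 4715 ± 156 with cells, against 267 ± 9.39, 167 ± 16.4 and 507 ± 25.1 for Myl7. Myl2 fell by 0.94 on the log2 scale after ligation (edgeR adjusted p 1.01e-12), and with cells against ligation its log2 fold change was -0.12 (edgeR adjusted p 0.105). Myl2 passed as lower there in 4 alternatives: library totals alone (-0.14), no filter (-0.12), header stems summed (-0.14) and without ligation replicate 3 (-0.19). Myl3 fell by 0.91 after ligation (edgeR adjusted p 4.93e-15) and rose by 0.14 with cells (edgeR adjusted p 0.00405). Pln fell by 0.61 and then rose by 0.19 (edgeR adjusted p 3.53e-08 and 0.0375). The second of these was lost with library totals alone, with libraries of one header stem summed and without ligation replicate 2 or 3 or cell replicate 1 or 2. Pln shares 59.5% of its 31-base stretches with antisense or neighbouring genes, and the strand setting of the counting is not given, so its level is uncertain.

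Expressed as count ratios with the sham mean set to 1, Myl7 per Myl2 was 0.977, 1.004 and 1.02 in sham, 1.15, 1.26 and 1.18 after ligation, and 3.83, 3.77 and 4.25 with cells. Myl4 per Myl3 averaged 1.36 ± 0.116 (SD, n = 3) after ligation and 4.27 ± 0.0745 with cells. Sln per Pln averaged 1.28 ± 0.145 and 3.89 ± 0.551. Thus all 3 ratios were above their sham range in every ligation library, since the ventricular gene was lower by more than the atrial one, and higher again with cells. These ratios were formed after the levels had been seen. A ratio within a library shows unequal change and does not say which gene moved.

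**Figure D2:**
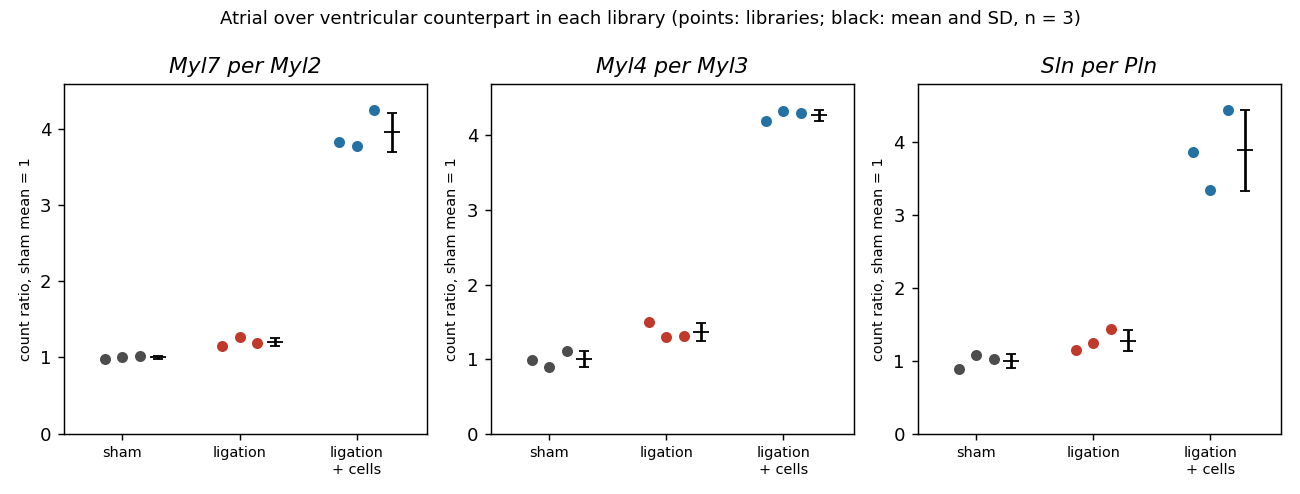
Atrial gene over its ventricular counterpart in each library (vertical axis, ratio of counts with the sham mean set to 1; horizontal axis, group; points are libraries, black bars mean and SD of 3). The cell libraries lie between 3.35 and 4.45 in all 3 panels and the ligation libraries between 1.15 and 1.499.

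Striated muscle light chains and their kinase outside the 7 genes were counted as a list of 6. After ligation 3 rose and 2 fell, where 20.1% and 18% of all tested genes did. With cells against ligation 2 rose and none fell, where 4.19% and 5.69% of all tested genes did. The median log2 fold change of the list was then -0.02. Myl1, an essential light chain of skeletal and embryonic muscle, rose from 68.5, 61.1 and 68.9 CPM in sham to 145, 133 and 129 CPM after ligation. With cells it stood at 157, 166 and 168 CPM, a rise of 0.28 over ligation (SE 0.0626, edgeR adjusted p 0.00605). Mylk3, the cardiac light chain kinase, rose by 0.55 after ligation (edgeR adjusted p 2.15e-09) and had a log2 fold change of -0.05 with cells (edgeR adjusted p 0.520). Of SERCA and its small regulators, 3 of 5 were tested. Atp2a2, the cardiac pump that sarcolipin acts on, fell by 0.38 after ligation (edgeR adjusted p 1.67e-09) and rose by 0.17 with cells (edgeR adjusted p 0.000419).

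Bmp10 (ENSMUSG00000030046, chr6:87428994-87437677, plus strand) had 0, 1 and 1 counts in the sham libraries, 14, 33 and 33 after ligation, and 4, 8 and 4 with cells. In CPM these were 0, 0.165 and 0.159, then 2.98, 4.78 and 4.13, then 0.567, 1.11 and 0.576. Sham was below the detectable level in every library, ligation was above every other library, and the cell group lay between without overlap. Over summed counts, ligation was 36.7-fold above sham (exact 95% counting interval 9.83 to 308) and 5.41-fold above the cell group (3.13 to 9.91). The cell group was 6.79-fold above sham (1.60 to 60.9). These intervals cover counting error only, and the gene is limited by depth. In the cells against sham comparison Bmp10 was past the threshold, but it was not without sham replicate 1 or without cell replicate 2. It failed the filter on low counts in a fit of sham and cells only. It therefore entered this comparison only through the ligation libraries, where it was high, and nothing is read from that call.

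Markers of the mesothelium, the lining of the heart's surface, rose with ligation in 9 of 9 cases, where 20.1% of all tested genes rose. The median log2 fold change of these markers was 3.04, though the ranges of Wt1 (0.50) overlapped. Their summed level was 37.9 to 50.01 CPM in sham, 249 to 292 after ligation and 209 to 210 with cells. With cells against ligation 3 of 9 fell, where 5.69% of all tested genes fell. The part of mesothelial cells in the level of Bmp10 was not tested.

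BMP10 signals through the receptor ALK1 (Acvrl1) with type II receptors and endoglin to SMAD1 and SMAD5, whose targets include the Id genes. Of 15 such genes 2 rose and 3 fell after ligation, 2 rose and 1 fell with cells against ligation, and 4 rose and 3 fell with cells against sham. Of all tested genes 20.1% rose and 18% fell after ligation, 4.19% and 5.69% did with cells against ligation, and 21% and 20% with cells against sham. The median log2 fold change was -0.00046, 0.05 and -0.04. Id1 stood at 133, 141 and 137 CPM in sham, 84.6, 78.9 and 92.0 CPM after ligation and 123, 120 and 117 CPM with cells. It fell by 0.68 after ligation (edgeR adjusted p 3.53e-08) and rose by 0.49 with cells (SE 0.0643, edgeR adjusted p 2.22e-05). These comparisons share the ligation libraries.

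Dkk3 (ENSMUSG00000030772, chr7:112116017-112159057, minus strand) was at 40.4, 45.0 and 42.4 CPM in sham. It was at 86.7, 92.6 and 87.3 CPM after ligation and at 140, 124 and 145 CPM with cells. The groups formed 3 separate steps. Its log2 fold change was 1.06 (SE 0.0756), or 2.09-fold, after ligation, 0.62 (SE 0.0677), or 1.54-fold, with cells against ligation and 1.68 (SE 0.0735), or 3.20-fold, with cells against sham. Dkk3 thus differed from the contractile genes in the first comparison and shared their direction in the second. It is also transcribed outside the myocardium. A list of 10 fibroblast genes summed to 4524 to 4537 CPM in sham, 5796 to 5967 after ligation and 5702 to 5867 with cells. After ligation 6 were higher and 2 lower, where 20.1% and 18% of all tested genes were. With cells against ligation none was higher and 1 lower (Col3a1), where 4.19% and 5.69% of all tested genes were. Beside the same shares, of 5 tested smooth muscle genes 1 rose and 2 fell after ligation, and 1 rose and 1 fell with cells against ligation. The sum of that list was 2403 to 2458, 3758 to 3860 and 3381 to 3444 CPM, most of it Des, which heart muscle also makes. The part of these cells in the level of Dkk3 was not tested.

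Nr2f2 (ENSMUSG00000030551, chr7:70351944-70366735, minus strand) read 30.8, 28.7 and 35.7 CPM in sham, 36.0, 29.5 and 34.0 CPM after ligation and 28.9, 32.5 and 30.4 CPM with cells. The 3 groups overlapped throughout. Its log2 fold changes were 0.06 (SE 0.104), -0.11 (SE 0.102) and -0.05 (SE 0.103). Nr2f1 (ENSMUSG00000069171, chr13:78188973-78199757, minus strand) was a low transcript, at 3.74, 3.95 and 3.81 CPM in sham, 2.77, 5.21 and 3.50 CPM after ligation and 2.98, 2.497 and 3.03 CPM with cells. Its cell libraries lay below its sham libraries, and its ligation libraries spanned both. The log2 fold change was 0.02 (SE 0.287), -0.46 (SE 0.293) and -0.44 (SE 0.297), and without ligation replicate 2 the first became -0.26 and the second -0.18. Neither gene passed the threshold in any comparison. Antisense genes overlap 2.42% of the exon bases of Nr2f1 and 7.46% of those of Nr2f2.

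Nr2f2 is also a marker of veins and lymphatics. Of 10 venous and lymphatic endothelial genes 4 rose and 2 fell after ligation and 3 fell with cells against ligation. The shares of all tested genes were 20.1% higher and 18% lower after ligation. With cells against ligation they were 4.19% and 5.69%. The sum of the 10 genes was 660 to 691 CPM in sham, 629 to 689 after ligation and 599 to 605 with cells. The COUP-TFs respond to retinoic acid, and 12 of 14 retinoid genes were tested. After ligation 4 rose and 2 fell, and with cells against ligation 2 rose and 1 fell, beside the same shares of all tested genes. Aldh1a1, a retinaldehyde dehydrogenase, rose by 1.24 after ligation (edgeR adjusted p 1.31e-10) and had a log2 fold change of -0.14 with cells (edgeR adjusted p 0.272). The related dehydrogenase Aldh1a2 rose by 0.78 after ligation (edgeR adjusted p 0.00173) and was the retinoid gene that fell with cells, by 0.77 on the log2 scale (edgeR adjusted p 0.0066), a call lost without ligation replicate 3 (edgeR adjusted p 0.0871). Cyp26b1, which breaks down retinoic acid, fell by 0.88 after ligation (edgeR adjusted p 0.000175) and rose by 0.82 with cells (edgeR adjusted p 0.00143).

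A wider list of 14 genes linked to the atria, none of them among the 7, asked how far the pattern extended. Of the 13 tested, 9 rose and none fell with cells against ligation, where 4.19% of all tested genes rose. After ligation 5 rose and 3 fell, where 20.1% of all genes rose and 18% fell. With cells against sham 9 rose and 2 fell, where 21% and 20% did. The median log2 fold changes were 0.25, 0.34 and 0.78. The list was chosen with earlier results of these data known, so its counts are not independent support.

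Mybphl, a myosin-binding protein of atrial muscle, stood at 7.12, 12.4 and 11.3 CPM in sham, 17.0, 13.5 and 16.5 CPM after ligation and 45.4, 45.9 and 45.8 CPM with cells. It rose by 0.59 after ligation and by 1.55 with cells against ligation (SE 0.129, edgeR adjusted p 4.22e-08). Cacna2d2, a subunit of voltage-gated calcium channels, was at 6.41, 6.26 and 5.24 CPM, then 8.10, 8.54 and 5.13 CPM, then 16.2, 19.97 and 18.4 CPM. It rose by 1.35 with cells (SE 0.179, edgeR adjusted p 2.58e-05). Stard10, a lipid transfer protein, was at 38.3 to 42.4 CPM over sham and ligation and rose to 67.4, 70.6 and 69.4 CPM with cells, by 0.75 (SE 0.0697, edgeR adjusted p 2.21e-07). With library totals alone Stard10 also passed as higher after ligation (0.24, edgeR adjusted p 0.0140). In these 3 genes every cell library was above every other library.

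The kinase gene Sbk2 rose by 0.68 with cells (SE 0.150, edgeR adjusted p 0.00499), and Pam, the enzyme that amidates secreted peptides, by 0.32 (SE 0.0380, edgeR adjusted p 5.66e-06). Kcnj5 and Kcnj3 encode the subunits of the acetylcholine-gated potassium channel, and Kcna5 a voltage-gated potassium channel. Kcnj5 rose by 0.53 with cells (SE 0.0795, edgeR adjusted p 0.000114), with -0.07 after ligation (edgeR adjusted p 0.576). Kcnj3 and Kcna5 fell by 0.75 and 0.68 after ligation and rose by 0.36 and 0.30 with cells (edgeR adjusted p 0.0343 and 0.0383), remaining below sham. An antisense gene covers 31.1% of the exon bases of Kcnj3, so its count is uncertain too. Hey1, a Notch target of the atrial myocardium, fell by 0.53 and rose by 0.34 (edgeR adjusted p 0.0211). The rises of Kcnj3, Kcna5 and Hey1 were lost in DESeq2's Wald test and whenever 1 of the 3 ligation libraries was left out, where 6 genes of the list passed. Leaving out 1 cell library lost 2 of them, and 7 genes passed. Library totals alone lost Kcnj3 and Kcna5, and the replicate block and the summing of header stems each lost Kcna5. The calls of Mybphl, Cacna2d2, Stard10, Sbk2, Pam and Kcnj5 held in all 18 alternatives.

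Nppa, the natriuretic peptide of atrial myocytes, did not pass with cells against ligation. It stood at 136, 68.9 and 116 CPM in sham, 1292, 829 and 564 CPM after ligation and 626, 1204 and 548 CPM with cells. It rose by 3.06 after ligation (SE 0.285, edgeR adjusted p 2.95e-08), and its log2 fold change with cells against ligation was -0.17 (SE 0.254, edgeR adjusted p 0.751). With no filter on low counts it did pass as lower with cells (-0.17, SE 0.0458, edgeR adjusted p 0.00700). That SE is far below the one above although the ligation and cell libraries overlapped, so it does not reflect their spread and the pass is not read. The log2 fold change turned to 0.19 without ligation replicate 1 and to 0.035 without cell replicate 3. An antisense gene covers 61.5% of its exon bases, so its count is uncertain. Tbx5, an atrial and conduction system transcription factor, and Gja5, the connexin of atria and arteries, rose after ligation by 0.51 and 0.77. With cells they had log2 fold changes of 0.27 (edgeR adjusted p 0.0793) and 0.11 (edgeR adjusted p 0.565). Cacna1d, a pacemaker and atrial calcium channel, did not pass in any comparison and was at 0.0022 with cells against ligation (SE 0.294).

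**Figure D3:**
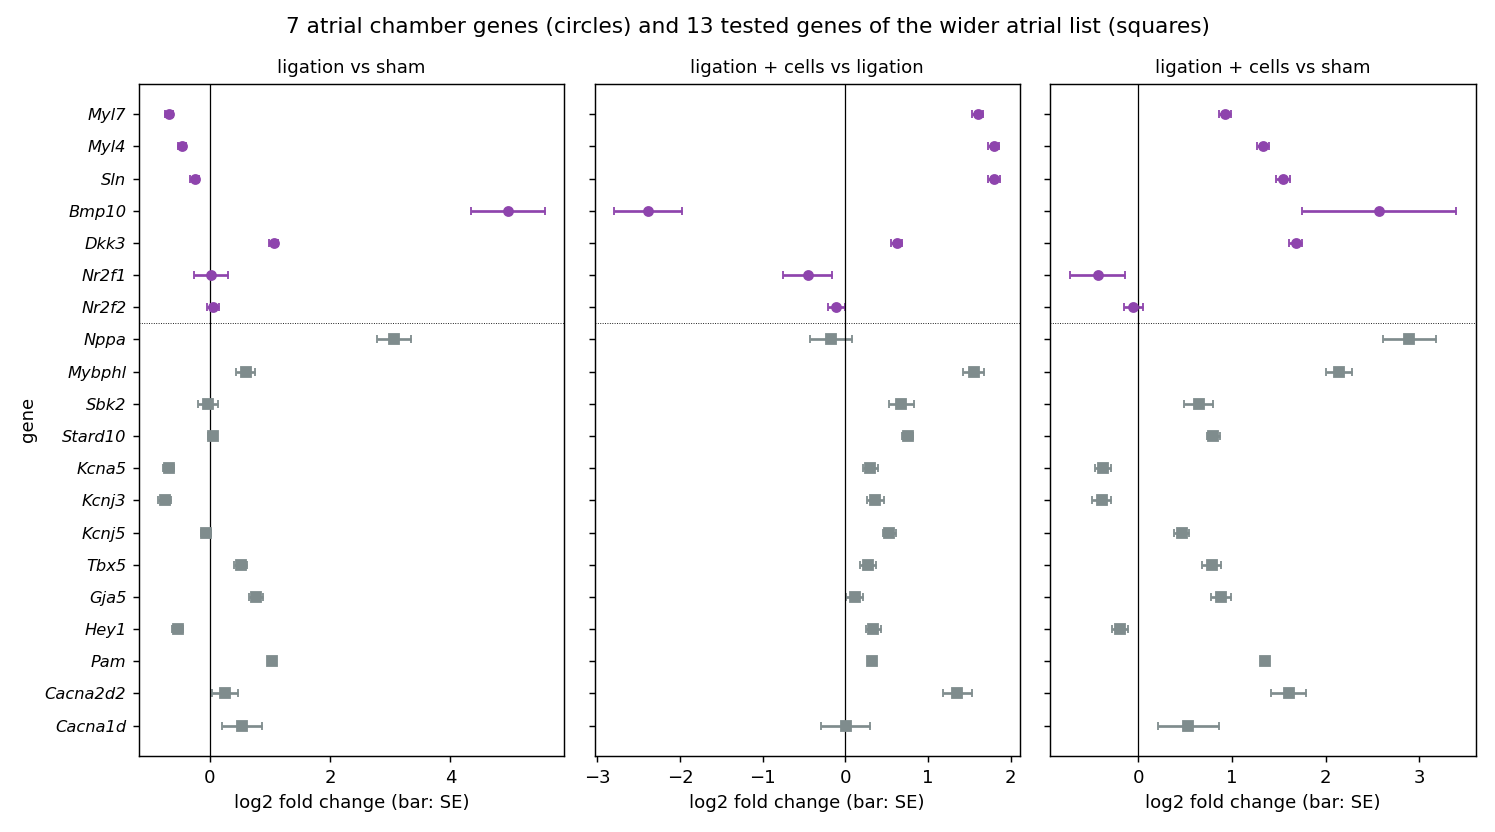
Log2 fold change with its SE (horizontal axis, a separate scale per panel) of the 7 atrial chamber genes (circles) and the 13 tested genes of the wider atrial list (squares) in the 3 comparisons. In the middle panel Myl7, Myl4, Sln, Mybphl and Cacna2d2 lie between 1.35 and 1.80, Bmp10 at -2.39 and Nppa at -0.17.

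Markers of other heart compartments were counted beside these genes. Of 11 ventricular genes 4 fell and none rose after ligation, and 4 rose and none fell with cells against ligation, with medians of -0.24 and -0.08. Of all tested genes 18% fell and 20.1% rose after ligation, and 4.19% rose and 5.69% fell with cells. The summed level of the ventricular list was 16650 to 16779 CPM in sham, 8407 to 9500 after ligation and 9008 to 9395 with cells. Most of this sum was Myl2, at means of 8704, 4547 and 4192 CPM, and Myl3, at 6515, 3468 and 3829 CPM. Of 6 tested nodal genes, 3 fell and 1 rose after ligation, and 2 rose with cells against ligation, with a median of 0.62. Tbx3, a repressor of working myocardium in the conduction system, fell by 1.28 after ligation (edgeR adjusted p 9.87e-10) and rose by 0.49 with cells (edgeR adjusted p 0.0023). Shox2, a factor of the sinus node and sinus horns, was at 1.42, 0.659 and 1.90 CPM in sham, 1.92, 1.74 and 1.0 CPM after ligation and 3.55, 4.44 and 4.75 CPM with cells. It rose by 1.49 over ligation (edgeR adjusted p 0.00996), a call lost without ligation replicate 3. Hcn4, a pacemaker channel, had a log2 fold change of 0.71 (edgeR adjusted p 0.0916). The nodal sum was 166 to 170 CPM in sham, 122 to 123 after ligation and 152 to 159 with cells. The summed level of the wider atrial list was 1042 to 1127, 2242 to 2953 and 2760 to 3368 CPM in that order. Most of it was Pam, at means of 704, 1434 and 1794 CPM, and Nppa, at 107, 895 and 792 CPM. How much atrial or nodal tissue the samples held was not measured, and its part in the levels of Myl7, Myl4 and Sln was not tested.

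Levels can be set against each other only per length. Per kilobase of the longest principal transcript, the order in sham was Myl7 (267 CPM), Myl4 (210), Sln (50.2), Dkk3 (12.7), Nr2f2 (7.51), Nr2f1 (1.20) and Bmp10 (0.024), with no overlap between neighbours. After ligation the order was the same, but Myl7 (149 to 180) overlapped Myl4 (141 to 170), and Nr2f1 (0.864 to 1.62) overlapped Bmp10 (0.664 to 1.06). With cells Myl4 (523 to 536) and Myl7 (484 to 534) overlapped, and Dkk3 reached 40.7 ± 3.25 (SD, n = 3), against 146 ± 15.6 for Sln.

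Variation within the groups was read from each library's deviation from its group mean in log2 CPM, over 9 libraries. Myl7 varied with an SD of 0.0975, more than the 0.0468 that counting alone gives but below that of most genes (percentile 25.97). Myl4, Sln, Dkk3 and Nr2f2 had SDs of 0.103, 0.110, 0.0866 and 0.135. For Nr2f1 (0.276 against a counting SD of 0.312) and Bmp10 (0.649 against 1.05) the spread was no wider than counting gives. Nppa varied far more, with 0.575 (percentile 94.2).

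Over the 21 pairs of the 7 genes, the Pearson correlation of these deviations had a median of 0.111 and ran from -0.72 to 0.80, with 14 above 0. The points share library depth and scaling, and no p is given. Myl7 and Myl4 varied together to a degree, with r = 0.52 (Spearman's rho 0.43), and 0.59 without the 2 libraries farthest from the median. Sln had r = 0.23 to Myl7 and -0.03 to Myl4, which became 0.52 and -0.36 without the 2 farthest libraries. Sln and Dkk3 had r = 0.80 (rho 0.70), which fell to 0.49 without the 2 farthest libraries, and within the cell group both were lowest in replicate 2 and highest in replicate 3. The other pairs above 0.5 were Myl4 with Nr2f2 (r = 0.72, and 0.31 without the 2 farthest) and Dkk3 with Nr2f1 (0.60 and 0.61). Those below -0.5 were Nr2f1 with Nr2f2 (-0.72 and -0.51) and Dkk3 with Nr2f2 (-0.57 and -0.63). Nppa had r = 0.73 with Myl4, -0.67 with Sln and -0.76 with Dkk3, and 0.65, -0.45 and -0.59 without the 2 farthest. Leaving out single libraries gave a median between -0.0477 and 0.286.

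**Figure D4:**
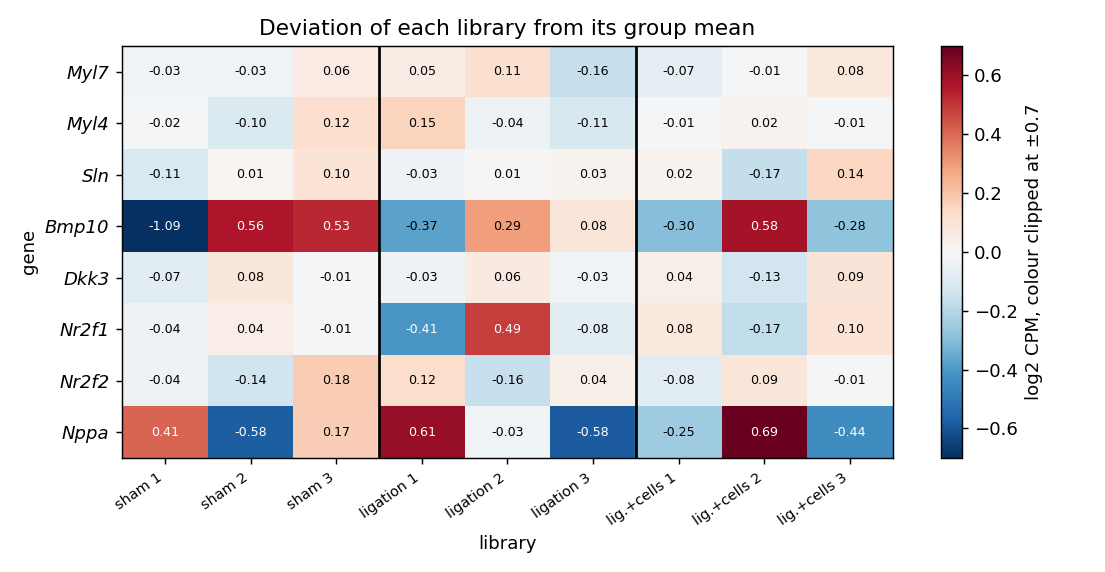
Deviation of each library from its group mean in log2 CPM (colour and printed value) for the 7 genes and Nppa (rows) in the 9 libraries (columns; vertical lines part the groups). Myl7 stays between -0.16 and 0.11, Sln is at -0.17 in cell replicate 2 and 0.14 in cell replicate 3, and Nppa reaches 0.69 in cell replicate 2.

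The genes most like Myl7 in these deviations were sought among 1422 genes with a mean of at least 5 CPM and a within-group SD of at least 0.25. They were Sec61a2 (r = 0.990), Zfp764 (0.980), Ccl27a (0.969), Rmnd1 (0.942), AI839979 (0.917), Gm8186 (0.891), 9430091E24Rik (0.886), Rbm3 (0.861), 4921531C22Rik (0.848) and Fgf12 (0.843), over 9 libraries. Myl7 itself varies less than the minimum asked of them, and so do Myl4, Sln, Dkk3 and Nr2f2, which the minimum therefore kept out. Nearest to Nr2f2 were Kctd6 (0.970), G2e3 (0.933), Snrpert (0.923), Nek8 (0.881) and Kcnk2 (0.875). Both sets are the highest of 1422 correlations over 9 centred libraries, so high values can arise from the search alone. Of the 10 nearest to Myl7, all but Rmnd1 and Rbm3 had means of 5.14 to 7.56 CPM, where counting noise adds to the spread. No shared regulation is read from them. A second measure, chosen after the data were seen, kept the differences between groups in the correlation, so it mostly ranks genes by the order of the groups. Over all 13825 tested genes Myl4 then stood 4th with Myl7 counted first (r = 0.977) and Sln 16th (0.944). Kcnj5 followed at 36th, Stard10 at 67th, Sbk2 at 125th, Cacna2d2 at 155th, Mybphl at 412th, Dkk3 at 1915th and Nppa at 6439th. Nr2f2 (11253rd, r = -0.38), Bmp10 (11461st, -0.40) and Nr2f1 (12282nd, -0.52) stood far down. Of the wider list, Hey1 was 1318th, Tbx5 2087th, Kcnj3 2426th, Kcna5 2720th, Pam 3039th, Gja5 4329th and Cacna1d 6744th. Genes of the ventricular list also ranked high, Irx4 at 63rd and Kcnip2 at 422nd, both named after their ranks were seen.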

How the data were processed

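RNA was measured in 9 libraries, 3 per group, grouped by their titles. Per the labels' protocols, TRIzol was used for RNA extraction and a NEBNext Ultra kit for library preparation. The authors deposited counts of reads per gene without normalization. Per the submitters' processing notes the build was mm10. The aligner, counter, strand setting and annotation release are not given in the sources used here. Rows that name no gene were left out: reads in no gene made up 4.14% to 4.91% and ambiguous reads 8.09% to 8.72%. GENCODE M21 gave symbols for 53274 of 53465 IDs, coordinates and transcript lengths, and RefSeq (GRCm38.p6) gave the promoters.

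In R 4.3.3, edgeR 4.0.16 (filterByExpr, TMM, glmQLFit, glmQLFTest) was fitted to all 9 libraries with 1 mean per group. All p-values were adjusted by Benjamini-Hochberg over 13825 tested genes, two-sided, with a threshold of 0.05. The SE of a log2 fold change is its absolute value over the root of the quasi-likelihood F. Deviations used log2 CPM with a prior count of 0.5. The same fit, tested on simulated data for cells against ligation, recovered 160 of 200 genes changed by 1 on the log2 scale among 13825, with 9 false calls, and called 0 genes when none was changed.

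The 7 genes and every list were chosen with earlier results of these data known. The naming rule took the 7 genes, the 10 genes most like Myl7 and 5 most like Nr2f2, and listed genes. Values of some listed genes are not reported here. Counting intervals include no error beyond counting, as reads without molecular identifiers may repeat a molecule. Alternatives were other scalings, filters, DESeq2 1.42.0, fits of 2 groups, removal of mitochondrially encoded genes, a replicate block and leaving out each library. Summing libraries by header stem and the likeness without centring were added after the data were seen. Figures were drawn with matplotlib 3.10.9.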

Additional observations from a re-analysis of the deposited data

How the results depend on the processing

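Over 18 alternatives per comparison, the counts of genes past the threshold stayed within 1.5 times of those reported. They ran from 4482 to 5459, 951 to 1398 and 5055 to 5746 without 1 library, and from 4488 to 6312, 1058 to 1483 and 4786 to 6310 otherwise. With library totals alone the median log2 fold change of all tested genes was 0.20, -0.03 and 0.15, against 0.0080, 0.0020 and -0.0073 with TMM factors, and 78.7%, 32.0% and 73.1% of passing genes were then higher, against 52.7%, 42.4% and 51.2% with TMM factors. Of 377 alternative values of the 7 genes, 365 moved by less than the within-group SD, 12 by more and 0 of the called values changed sign. Among uncalled ones, Nr2f1 after ligation turned to -0.045 with header stems summed and -0.26 without ligation replicate 2. Nr2f2 turned to -0.014 after ligation without sham replicate 2, and to 0.10 with library totals and 0.042 without sham replicate 3 with cells against sham. With library totals alone Myl7, Myl4 and Dkk3 became -0.49, -0.28 and 1.25 after ligation. The calls lost were those of Sln and Bmp10 given above, and Bmp10 failed the filter in the fit of sham and cells only. For listed genes, 1342 of 1404 values kept sign and call. Signs changed, always short of the threshold, for Sbk2 (0.16) and Kcnj5 (0.12) after ligation and Cyp26b1 with cells against sham (0.10), each with library totals alone, for Aldh1a2 with cells against sham (-0.0033 with mitochondrially encoded genes removed), and for Cacna1d with cells against ligation, at -0.028 with library totals, -0.0042 with DESeq2 and -0.029 with header stems summed. Without 1 library the ranges were -0.16 to 0.038 for Sbk2 and -0.16 to 0.53 for Shox2 after ligation, -0.30 to 0.20 for Cacna1d and -0.60 to 0.19 for Nppa with cells against ligation, and -0.16 to 0.088 for Cyp26b1 and -0.15 to 0.27 for Aldh1a2 with cells against sham. The cause was not tested. Levels near 3 counts, as for Bmp10 and Shox2, are limited by depth.

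With the replicate number as a block, 5134, 1230 and 5511 of the 13825 tested genes passed. So did 5, 5 and 5 of the 7 genes and 8, 8 and 11 of the wider list. Both sets were chosen with results of these data known, so nothing is read from their counts. Cacna1d with cells against ligation was then -0.013. Averaged over pairs, libraries with the same number had deviations correlated at 0.0510, -0.0125 and -0.0495, so the numbers do not show a pairing of libraries.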
